A study of Mus musculus with 30 samples.

Results

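Glycolysis and the response to low oxygen were followed through 34 genes, chosen by name and matched by symbol to the 78334 gene identifiers of a table of expected read counts. All 34 were found, and 33 were tested. Adm, which encodes the vasodilator peptide adrenomedullin, was too low to test in either sequencing run. The 30 RNA-seq libraries came from cultured mouse aortic smooth muscle cells held without serum for 48 h. The culture description names rat cells as well as mouse cells, and the table was read with mouse identifiers.

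The study asked what the long noncoding RNA CASC15 does in these cells, alone and beside 2 stimuli. In run 2, untreated cells received a control antisense oligonucleotide (GapmeR, 2 libraries), a GapmeR named in the library names as against total CASC (tCAS, 2 libraries), a control plasmid (3 libraries) or a plasmid for tCAS overexpression (3 libraries). In run 3, with 4 libraries a group, cells with the control GapmeR were left untreated, given angiotensin II at 10 ng/ml, or given PDGF-BB, a platelet-derived growth factor, at 10 to 30 ng/ml. Cells with a GapmeR named as against long CASC (lCAS) were left untreated or given the same angiotensin II. The number after CASC is not the same in all libraries of a group. Titles and treatment labels read total CASC15 and CASC16 in the 2 total knockdown libraries, and total CASC15, CASC16 and CASC17 in the 3 overexpression libraries. They read long CASC15 to CASC18 with angiotensin II and long CASC19 to CASC22 in the untreated long knockdown libraries, 1 number a library. The library names carry no such number and put each set in 1 group (tCAS or lCAS). Groups were taken from those names and are called CASC15 here. Whether the numbers stand for different targets is not stated. Stimulation lasted 24 h and transfection at least 24 h. Every library thus carries a transfected oligonucleotide or plasmid, the controls included. No long CASC15 knockdown library received PDGF-BB. Each replicate number is also a labelled batch: P17 to P19 in run 2 and P16 to P19 in run 3, and both GapmeR groups of run 2 lack P19. Values per library below are CPM (a gene's counts relative to the TMM-scaled total of its library), in the order of the batches. What the labels mean by batch is not stated, so p-values measure the spread between these libraries, which may be partly technical.

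Glycolysis turns glucose into pyruvate in the cytosol, and lactate dehydrogenase turns pyruvate into lactate when it does not enter the mitochondrion. HIF-1alpha is the oxygen-labile subunit of the hypoxia-inducible factor. Prolyl hydroxylases mark it for destruction while oxygen is present, and once stable it binds DNA and raises the transcription of glucose transporters, glycolytic enzymes and genes for survival in low oxygen. Smooth muscle cells that leave the contractile state and divide are known for a high rate of glycolysis. None of these libraries is labelled as hypoxic.

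The HIF binding core was searched in promoters because many of these genes are textbook HIF targets and because several rose together below. RefSeq windows of 300 bases (250 before and 50 after a transcription start, build GRCm38.p6) were held for 33 members, 49 windows in all, and Ndrg1 had none. The letters searched were ACGTG and GCGTG on either strand, which read CACGT and CACGC on the other strand, and matches that overlap count as 1. At least 1 match stood in 38 of the 49 windows (77.6%), beside 43.8% of the 32851 windows of all genes. By gene, 30 of 33 members (90.9%) and 46.7% of all genes with a window held a match. The members' windows had a median GC content of 62%, beside 52.7% for all windows, and no set matched for it was drawn. Gpi1, Tpi1 and Eno2 held none, which says only that these letters are not in those windows. The 250 bases before the start are printed for 5 members whose levels lead the results below: Pgk1 (chrX:106186850-106187099, plus strand), Ldha (chr7:46845554-46845803, plus strand, the first of its 2 windows), Hk2 (chr6:82774455-82774704, minus strand), Ankrd37 (chr8:45999851-46000100, minus strand) and Ldhb (chr6:142507958-142508207, minus strand). Each is written 5′ to 3′ on the gene's strand with the matched letters in capitals.
Pgk1: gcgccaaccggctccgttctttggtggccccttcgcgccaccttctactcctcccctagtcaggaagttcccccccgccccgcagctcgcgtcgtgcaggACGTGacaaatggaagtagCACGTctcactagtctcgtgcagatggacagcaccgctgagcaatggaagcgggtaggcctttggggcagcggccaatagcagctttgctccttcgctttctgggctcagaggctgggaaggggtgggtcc
Ldha: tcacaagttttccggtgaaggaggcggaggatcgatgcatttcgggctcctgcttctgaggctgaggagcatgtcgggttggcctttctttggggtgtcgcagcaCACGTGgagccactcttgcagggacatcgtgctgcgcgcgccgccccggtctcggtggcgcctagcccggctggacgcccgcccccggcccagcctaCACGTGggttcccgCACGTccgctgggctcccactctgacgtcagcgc
Hk2: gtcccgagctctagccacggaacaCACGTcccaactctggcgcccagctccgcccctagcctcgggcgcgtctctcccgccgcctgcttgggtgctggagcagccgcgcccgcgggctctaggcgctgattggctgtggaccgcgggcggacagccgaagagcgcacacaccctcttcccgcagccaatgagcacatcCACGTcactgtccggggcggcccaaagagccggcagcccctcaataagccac
Ankrd37: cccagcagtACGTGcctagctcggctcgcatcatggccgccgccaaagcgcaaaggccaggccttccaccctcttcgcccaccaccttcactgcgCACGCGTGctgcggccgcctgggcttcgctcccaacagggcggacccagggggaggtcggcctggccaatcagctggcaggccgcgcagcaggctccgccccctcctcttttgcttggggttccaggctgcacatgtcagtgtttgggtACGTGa
Ldhb: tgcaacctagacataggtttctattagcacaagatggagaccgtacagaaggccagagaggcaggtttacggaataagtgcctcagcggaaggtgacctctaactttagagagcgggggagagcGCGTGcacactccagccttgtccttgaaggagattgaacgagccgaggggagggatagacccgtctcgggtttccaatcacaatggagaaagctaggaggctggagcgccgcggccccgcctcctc
In this stretch Ldha and Ankrd37 had 3 separate matches, Pgk1 and Hk2 had 2, and Ldhb had 1. Ldha carried the palindrome CACGTG in 2 of them. A match describes letters only, and no binding was measured.

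Libraries held 15771490 to 30362047 counts. The gene read as the target, 2610307P16Rik, which no table used here pairs with the name CASC15, lay at 604 to 916 CPM in the overexpression libraries and at 4.03 to 8.69 CPM in the plasmid control. It lay at 2.15 to 3.48 CPM in untreated long knockdown and at 4.94 to 6.01 CPM in its control. In the libraries labelled total CASC15 knockdown it lay at 8.29 to 9.73 CPM, above the 6.37 to 7.66 CPM of their control, which goes against that label, and they are named by label throughout. Of 8 smooth muscle markers, Acta2 (median 188 CPM over the 30 libraries) and Smtn (67.9 CPM) were the highest. Myocd (1.40 CPM), Tagln (1.26 CPM), Des (0.753 CPM), Lmod1 (0.635 CPM) and Myh11 (0.282 CPM) were low, and Cnn1 was at 0 counts in 17 libraries. Of 6 fibroblast markers, Col1a1 (median 1974 CPM) and Dcn (1488 CPM) were high, Pi16 (19.998 CPM) and Pdgfra (18.8 CPM) lower, and Lum (1.13 CPM) and Dpt (0.188 CPM) low. Of 7 endothelial markers, Tie1 was at 0 counts in all 30 libraries and Cdh5 in 28, while Pecam1 (at most 3.27 CPM) was at 0 in none and Vwf reached 6.14 CPM. Of 7 macrophage and leukocyte markers, C1qa was at 0 in all 30, Adgre1 in 29 and Ptprc in 26, while Cd68 was at 0 in none and reached 15.9 CPM. In bulk RNA, a change in the make-up of the cells and a change within each cell cannot be told apart.

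Levels across the members spanned several orders of magnitude. Between genes they are compared per kilobase of median transcript length, in untreated control cells of run 3. Gapdh, the dehydrogenase step in the middle of the pathway, led at 1020 ± 51.2 CPM per kb (SD, n = 4), ahead of Pkm, the pyruvate kinase of the last step, at 554 ± 28.7. Tpi1, Eno1 and Aldoa followed at 351, 311 and 286 CPM per kb, and the libraries of Tpi1 and Eno1, and of Eno1 and Aldoa, overlapped. These 5 enzymes held 63.1% of the summed level of the 34 members. Ldha (208 CPM per kb) and Pgam1 (203) did not separate either. Hif1a stood ninth, at 144 ± 24.8 CPM per kb, above every hexokinase and phosphofructokinase gene. Slc2a1, the glucose transporter GLUT1, stood at 12.3 CPM per kb and Hk2 at 7.37. At the foot were Ankrd37 (1.40), Car9 (0.170) and Adm (0.0536). Hypoxia-induced genes outside the glycolysis, lactate and oxygen-sensing roles thus ran from P4ha1 at 80.5 CPM per kb down to almost nothing. Of the 33 neighbouring pairs in this order, 20 overlapped between libraries.

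**Figure D1:**
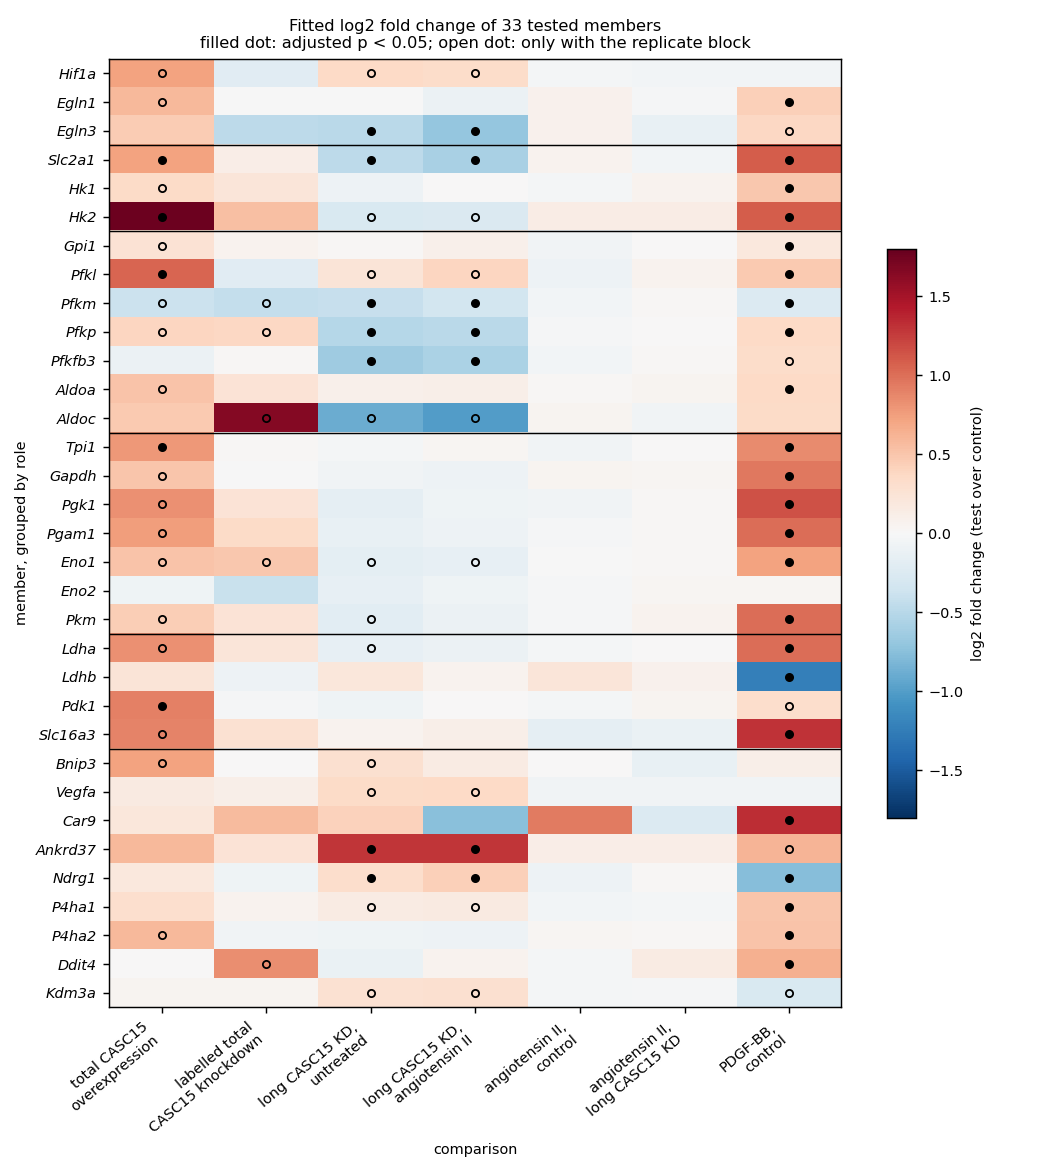
Fitted log2 fold changes (colour, red higher and blue lower) of the 33 tested members, in rows grouped by role, in 7 comparisons, in columns. Filled dots mark members called at an adjusted p under 0.05 and open dots those called only with the batch as a replicate block. PDGF-BB has 23 filled dots, total CASC15 overexpression 5, each long CASC15 knockdown comparison 7, and angiotensin II none.

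PDGF-BB gave the broadest response. In control cells, 20 of 33 tested members were higher after 24 h and 3 were lower, in the quasi-likelihood test of edgeR, adjusted by Benjamini-Hochberg over the 15103 genes of the run. Over all genes tested, 23.6% were higher and 20.0% were lower. The median log2 fold change of the members was 0.471, and that of all genes -0.017. With the batch as a replicate block, 24 were higher and 4 lower, beside 28.3% and 26.2% of all genes. The members' share of all counts was 1.07 to 1.28% in PDGF-BB libraries and 0.726 to 0.844% in their controls. The share of mitochondrial genes was lower with PDGF-BB in 4 of 4 batches, at 1.73 to 2.81% against 2.65 to 3.01%. DNA replication and mitosis genes moved with it: all 9 proliferation markers were higher, and their summed level was 2085 to 2227 CPM against 184 to 346 CPM. Among other markers, Dcn (-1.26 ± 0.11 on the log2 scale), Pdgfra (-2.27 ± 0.61) and Lum (-2.37 ± 0.71) of fibroblasts, Acta2 (-0.94 ± 0.14) and Pecam1 (-1.65 ± 0.63) were lower, and Smtn (1.03 ± 0.089), Col1a1 (0.49 ± 0.10) and Pi16 (0.57 ± 0.22) were higher. The part of any of these in the members' response was not tested.

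All 3 genes of glucose uptake and trapping rose. Slc2a1 read 40.02, 40.2, 38.6 and 41.0 CPM in the untreated libraries and 82.3, 84.2, 82.9 and 89.6 CPM with PDGF-BB. The lowest PDGF-BB library lay far above the highest control, with a fitted log2 fold change of 1.08 ± 0.094 (SE; adjusted p = 1.9e-08). Hk2, the inducible hexokinase that traps glucose in the cell, went from 35.9, 31.6, 29.6 and 25.2 CPM to 70.2, 64.0, 66.4 and 60.5 CPM. No library overlapped, and the change was 1.09 ± 0.12 on the log2 scale (adjusted p = 4.5e-07). Hk1, the constitutive hexokinase and the more abundant of the pair, rose less, from 315, 325, 357 and 338 CPM to 451, 489, 483 and 441 CPM (log2 0.48 ± 0.076; adjusted p = 3.6e-05).

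Upper glycolysis moved less, and one phosphofructokinase went down. Of its 7 genes 4 rose, 1 fell and 2 were not called. Aldoa, the main aldolase, rose from 455, 440.1, 407 and 428 CPM to 617, 556, 552 and 498 CPM, without overlap (log2 0.36 ± 0.076; adjusted p = 0.000696). Pfkl, the liver-type phosphofructokinase, read 209, 206, 192 and 134 CPM and 295, 283, 265 and 184 CPM (log2 0.47 ± 0.17; adjusted p = 0.0314), and the platelet-type Pfkp 75.6, 74.4, 68.4 and 60.0 CPM and 102, 97.0, 89.1 and 68.1 CPM (log2 0.35 ± 0.11; adjusted p = 0.0165). Both were higher in 4 of 4 batches, with overlap across batches. The muscle-type Pfkm went the other way. It read 136, 140.5, 136 and 118 CPM without and 112, 115, 111 and 107 CPM with PDGF-BB, so that the lowest control stood just above the highest treated library (log2 -0.25 ± 0.089; adjusted p = 0.0278). Gpi1, the isomerase between hexokinase and phosphofructokinase, gained little (log2 0.20 ± 0.077; adjusted p = 0.0455). These 4 calls are thin. Gpi1 lost its call without any 1 of 7 libraries (adjusted p 0.0532 to 0.254; all 4 controls and PDGF-BB replicates 1 to 3), and Pfkl without control replicate 4 or PDGF-BB replicate 1, 2 or 3 (0.0510 to 0.0990). Pfkm lost it without control replicate 2 or 3 or PDGF-BB replicate 3 (0.0514 to 0.0715), and Pfkp without PDGF-BB replicate 1 or 2 (0.0725 and 0.0515). Pfkfb3, which makes the activator of phosphofructokinase, was at 0.33 (adjusted p = 0.0745, and 0.025 with the block). Aldoc, a minor aldolase, was at 0.35 (adjusted p = 0.447).

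In lower glycolysis, 6 of 7 genes rose by 0.73 to 1.14 on the log2 scale, and Eno2, the neuronal enolase, was not called (log2 0.033 ± 0.24; adjusted p = 0.922). Pgk1, which makes the first ATP of the pathway, read 358, 295, 259 and 263 CPM in controls and 731, 686, 612 and 558 CPM with PDGF-BB. The groups were well apart, and P19 was the lowest PDGF-BB library (log2 1.14 ± 0.11; adjusted p = 1e-07). Pgam1, the mutase, read 398, 343, 340.5 and 362 CPM and 783, 715, 672 and 732 CPM (log2 1.01 ± 0.089; adjusted p = 2.5e-08). For Pkm the values were 1274, 1184, 1187 and 1312 CPM and 2560.2, 2488, 2494 and 2395 CPM (log2 1.00 ± 0.09; adjusted p = 3e-08). In both the groups lay far apart. Gapdh, often used as a reference gene, was no constant here: it went from 1298 ± 65.2 CPM (SD, n = 4) to 2502 ± 178 CPM (SD, n = 4) (log2 0.95 ± 0.078; adjusted p = 1e-08). Tpi1, the triose isomerase, was at 0.85 ± 0.08 and the enolase Eno1 at 0.73 ± 0.087 on the log2 scale, with adjusted p of 4.9e-08 and 1.3e-06. Gapdh, Pgk1, Pgam1 and Eno1 had values that were not whole (over 1e-09 from a whole number) in all 30 libraries, Pkm in 29, Aldoa in 27, Pfkp in 20 and Hk1 in 15. RSEM divides reads among similar genes, and the values of members with such counts are uncertain to that extent. Named processed copies held at most 1.13% of a member's counts (Pgam1-ps2), and adding them changed no call of a member.

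The lactate branch split between its 2 dehydrogenase genes. Ldha, whose subunit is known as the muscle form and dominates in glycolytic cells, read 356, 338, 317 and 311 CPM in controls and 689, 668, 648 and 642 CPM with PDGF-BB (log2 1.00 ± 0.067; adjusted p = 5.9e-10, the smallest among the members). Ldhb, the heart form, read 15.8, 15.5, 16.3 and 15.5 CPM and 7.01, 6.98, 7.27 and 5.60 CPM. All PDGF-BB libraries were above the controls for Ldha and below them for Ldhb (Ldhb log2 -1.23 ± 0.11; adjusted p = 1.7e-08). Slc16a3, the lactate exporter MCT4, rose from 13.6, 12.7, 11.1 and 8.06 CPM to 37.3, 30.3, 26.5 and 17.97 CPM. Its treated libraries were scattered but all above the controls (log2 1.304 ± 0.23; adjusted p = 0.000123). Pdk1, the kinase that switches off pyruvate dehydrogenase, was higher in 4 of 4 batches (log2 0.32 ± 0.20) with an adjusted p of 0.204, and of 0.000202 with the block.

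Oxygen-sensing and hypoxia-induced genes were mixed. Hif1a read 775, 659, 562 and 536 CPM without and 657, 661, 607 and 529 CPM with PDGF-BB, fully overlapping (log2 -0.044 ± 0.13; adjusted p = 0.806). Egln1, the main oxygen sensor that marks HIF-1alpha for destruction, rose from 74.7, 72.4, 76.3 and 69.7 CPM to 106, 97.2, 100.4 and 90.9 CPM, without overlap (log2 0.43 ± 0.068; adjusted p = 4e-05), and Egln3, a related hydroxylase that HIF itself induces, was at 0.37 (adjusted p = 0.0527, and 0.0127 with the block). Among the 9 tested hypoxia-induced genes outside the glycolysis, lactate and oxygen-sensing roles, 4 rose, 1 fell and 4 were not called. P4ha1 and P4ha2, catalytic subunits of the collagen prolyl hydroxylase, rose by 0.50 ± 0.078 and 0.51 ± 0.10 on the log2 scale (adjusted p = 3.1e-05 and 0.000218). Ddit4, a stress-induced inhibitor of mTORC1, read 51.4, 70.0, 65.0 and 71.7 CPM and 91.2, 103, 113 and 96.4 CPM (log2 0.65 ± 0.18; adjusted p = 0.00705). Ndrg1, a stress and hypoxia gene, ran against them, from 162, 163, 175 and 142 CPM to 99.3, 106, 97.6 and 74.5 CPM, without overlap (log2 -0.77 ± 0.084; adjusted p = 4.2e-07). Vegfa, the endothelial growth factor, was at -0.066 ± 0.19 and Bnip3, a mitophagy receptor, at 0.10 ± 0.11, both uncalled in either fit (adjusted p = 0.802 and 0.473). Kdm3a, a histone demethylase, was lower in 4 of 4 batches (log2 -0.27 ± 0.11; adjusted p = 0.0578, and 5.4e-06 with the block). Ankrd37 was at 0.62 (adjusted p = 0.111, and 0.0269 with the block). Car9, the carbonic anhydrase that serves as a hypoxia marker, passed the test (log2 1.32 ± 0.37; adjusted p = 0.00611) but at 0.42, 0.433, 0.249 and 0.271 CPM against 1.35, 0.719, 0.738 and 0.662 CPM, so that it rests on few reads.

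**Figure D2:**
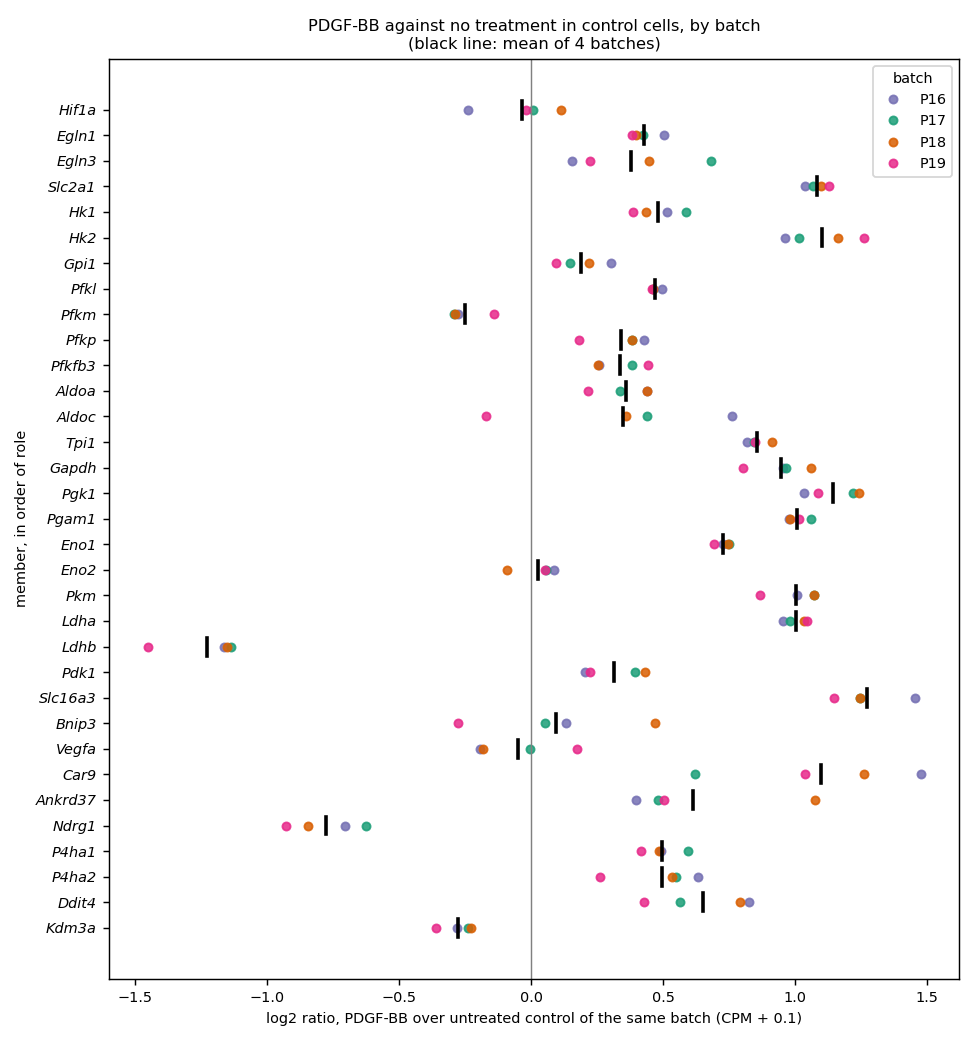
Log2 ratio of PDGF-BB over the untreated control of the same batch (x axis, CPM plus 0.1) for the 33 tested members (y axis, in order of role). Points are the 4 batches by colour and black lines their means. Slc2a1, Hk2, Pgk1, Pgam1, Pkm and Ldha lie near 1 in every batch, while Ldhb and Ndrg1 lie below 0 in all 4.

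With total CASC15 overexpression, Hk2, Pfkl, Tpi1, Slc2a1 and Pdk1 rose. Against the plasmid control, these 5 of 33 were higher and 0 lower, beside 1.09% and 0.554% of the 15350 genes tested. With the batch as a replicate block, 20 were higher and 1 lower, beside 9.40% and 8.33% of all genes. DESeq2 called 14, all higher, beside 2.45% of the 29867 genes it fitted. The median log2 fold change of the members was 0.5004, that of all genes 0.00026, and 30 of 33 members were above 0. The members held 0.982 to 1.18% of counts in the overexpression libraries and 0.758 to 0.846% in the controls. Mitochondrial genes held less in 3 of 3 batches, 0.764 to 1.16% against 1.11 to 1.28%. Proliferation markers were above their own batch's control as well: 0 of 9 were called without the block and 9 of 9 with it, and their summed level was 200.5 to 741 CPM against 123 to 505 CPM. Of the other 4 marker lists, 0 genes were called without the block. With it, by fold changes from the fit without it, Pdgfra (0.76 ± 0.54 on the log2 scale) and Csf1r (3.01 ± 0.86) were higher and Lum (-1.37 ± 0.93) and Pi16 (-0.80 ± 0.45) lower. Their part in the members' values was not tested.

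Hexokinase 2 changed most. Hk2 read 32.4, 37.3 and 51.6 CPM in the plasmid control of batches P17 to P19 and 109, 151 and 151 CPM with overexpression. The groups were far apart (log2 1.76 ± 0.21; adjusted p = 0.00412, and 0.000625 with the block). Slc2a1 went from 50.8, 55.5 and 68.3 CPM to 87.0, 90.4 and 109.6 CPM, again without overlap, but its call was marginal (log2 0.72 ± 0.15; adjusted p = 0.0488). It was lost without any 1 of 5 libraries (adjusted p 0.0810 to 0.186; control replicates 1 and 2 and overexpression replicates 1 to 3), with RLE factors (0.0506) and with only the groups compared (0.133). With the block the adjusted p of Slc2a1 was 0.000416. Hk2 and Pfkl kept their calls with only the groups compared, at an adjusted p of 0.0256 and 0.0374. Hk1 was at 0.35 ± 0.15 (adjusted p = 0.322, and 0.0104 with the block).

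Pfkl was the one gene of upper glycolysis called without the block. It read 144, 151 and 144 CPM in controls and 247, 343 and 313 CPM with overexpression, with no overlap (log2 1.04 ± 0.12; adjusted p = 0.00412). Pfkm was lower in 3 of 3 batches, from 166, 166 and 113 CPM to 134, 113 and 93.2 CPM, but the groups overlapped, the P19 control being as low as the P18 overexpression library (log2 -0.39 ± 0.17; adjusted p = 0.343, and 0.00947 with the block). Aldoa was higher without overlap (log2 0.51 ± 0.11; adjusted p = 0.0593, and 0.0022 with the block). In lower glycolysis, Tpi1 read 344, 346 and 336 CPM and 493, 689 and 573 CPM (log2 0.77 ± 0.13; adjusted p = 0.0175). Its controls were close together, and its overexpression libraries were spread. Its call was lost without control replicate 1 or 2 or overexpression replicate 2 (adjusted p 0.0529 to 0.0740), and with only the groups compared (0.0994). Gapdh, Pgk1, Pgam1, Eno1 and Pkm were at log2 0.50, 0.83, 0.76, 0.51 and 0.44, uncalled without the block (adjusted p = 0.0568, 0.0708, 0.133, 0.2 and 0.289) and called with it (0.00234, 0.000233, 0.00127, 0.00231 and 0.00574). Eno2 was not called in either fit (log2 -0.08 ± 0.34).

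At the pyruvate step, Pdk1 read 50.1, 40.9 and 47.9 CPM and 74.6, 91.2 and 95.9 CPM, with the groups apart (log2 0.91 ± 0.14; adjusted p = 0.0116). Without control replicate 2 or overexpression replicate 2 its adjusted p was 0.0651 or 0.0633, and with only the groups compared it was 0.0525. Ldha read 229, 227 and 342 CPM and 362, 468 and 574 CPM. It was higher in 3 of 3 batches, and the lowest overexpression library lay just above the highest control (log2 0.82 ± 0.20; adjusted p = 0.0872, and 0.000283 with the block). Slc16a3 was at 0.90 ± 0.20 (adjusted p = 0.0631, and 0.00307 with the block), and Ldhb at 0.23 ± 0.26, uncalled in both fits (adjusted p = 0.723 and 0.266). Hif1a itself read 653, 512 and 415 CPM and 865, 1058 and 697 CPM. The groups did not overlap, although the lowest overexpression library was close to the highest control (log2 0.73 ± 0.23; adjusted p = 0.168, and 0.00614 with the block). Egln1 was at 0.59 ± 0.15 and Bnip3 at 0.72 ± 0.18, with adjusted p of 0.0931 and 0.0881 and, with the block, 0.00431 and 0.0246. Among the 9 tested hypoxia-induced genes outside the glycolysis, lactate and oxygen-sensing roles, 0 were called without the block. Bnip3 and P4ha2 (log2 0.59 ± 0.19) were called with it. Ddit4 (0.003 ± 0.15), Kdm3a (0.042 ± 0.14) and Vegfa (0.16 ± 0.11) were close to 0 on the log2 scale. Leaving out 1 library moved the count of 5 and the share of all genes called (1.65% in either direction). The count was 3 without control replicate 1 (0.654% of all genes), 2 without control replicate 2 (0.581%) or overexpression replicate 2 (0.561%), and 11 without control replicate 3 (5.69%). It was 6 without overexpression replicate 1 (0.928%) and 4 without overexpression replicate 3 (1.57%). Without batch P19 it was 9 (5.57%). With the block, leaving out 1 library gave 17 to 20, beside 8.38 to 17.3% of all genes.

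**Figure D3:**
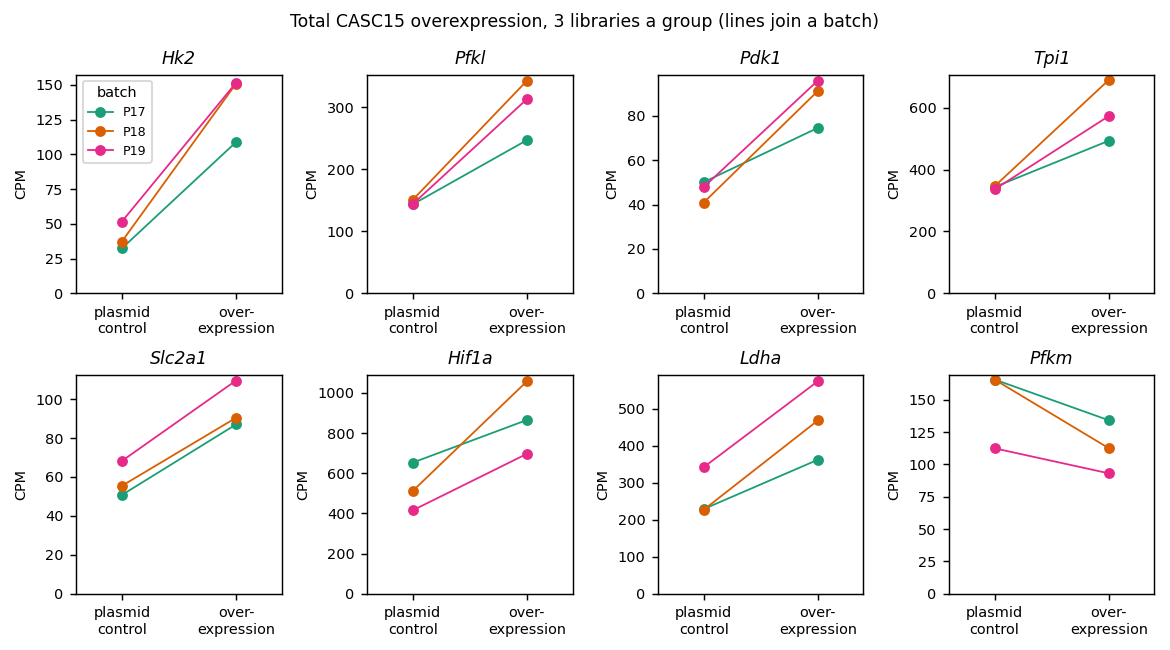
CPM (y axis, from 0) of 8 members in the plasmid control and with total CASC15 overexpression, 3 libraries a group, with lines joining libraries of a batch. Hk2, Pfkl, Pdk1, Tpi1, Slc2a1, Hif1a and Ldha are higher in each of the 3 batches, and Pfkm is lower in each.

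Long CASC15 knockdown moved members in both directions. In untreated cells 2 of 33 were higher and 5 lower than in controls, beside 12.3% and 12.8% of all genes. In cells given angiotensin II, 2 were higher and 5 lower, beside 13.4% and 13.3%. The 7 genes were the same in both: Ankrd37 and Ndrg1 higher, and Egln3, Slc2a1, Pfkm, Pfkp and Pfkfb3 lower. The 2 comparisons share no library, but they share the batches and the fit, so they are not independent. Members' median log2 fold changes were -0.079 and -0.077, beside 0.015 and 0.014 for all genes. As shares of the 33 tested, these counts are near the background for genes lower and below it for genes higher. With the block, 8 were higher and 10 lower without treatment, beside 20.0% and 20.6% of all genes, and 7 were higher and 8 lower with angiotensin II, beside 20.4% and 20.9%. Of these, 7 higher and 8 lower genes were shared. Proliferation markers were lower in part: 1 of 9 untreated and 2 of 9 with angiotensin II (6 and 8 with the block), with summed levels of 109 to 270 CPM against 184 to 346 CPM in untreated cells. Markers of other lists moved in both directions without the block. In untreated cells Myh11 (3.73 ± 0.73 on the log2 scale) and Smtn (0.60 ± 0.089) of smooth muscle, Vwf (2.10 ± 0.62) and the fibroblast genes Lum (2.06 ± 0.53) and Pdgfra (1.66 ± 0.53) were higher, and Pi16 (-1.83 ± 0.24), Col1a1 (-0.64 ± 0.10) and Myocd (-1.33 ± 0.37) lower. With angiotensin II the calls were the same except Lum (1.298 ± 0.53; adjusted p = 0.0754). The part of any of these was not tested.

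Of the 5 lower genes, Slc2a1 encodes a glucose transporter, Pfkm, Pfkp and Pfkfb3 bear on phosphofructokinase, and Egln3 is an oxygen-sensing hydroxylase. Slc2a1 read 40.02, 40.2, 38.6 and 41.0 CPM in untreated controls and 30.0, 33.2, 26.7 and 25.6 CPM with long CASC15 knockdown (log2 -0.47 ± 0.10; adjusted p = 0.00116). With angiotensin II it read 47.9, 38.4, 35.7 and 45.8 CPM and 29.6, 31.1, 27.2 and 24.2 CPM (log2 -0.58 ± 0.10; adjusted p = 0.000156). Knockdown libraries lay under every control in both settings. Pfkm read 136, 140.5, 136 and 118 CPM and 94.2, 112, 109 and 84.6 CPM untreated (log2 -0.41 ± 0.089; adjusted p = 0.00212), and 133, 122, 125 and 132 CPM and 110.0, 113, 99.4 and 84.4 CPM with angiotensin II (log2 -0.33 ± 0.09; adjusted p = 0.00943). For Pfkp the values were 75.6, 74.4, 68.4 and 60.0 CPM and 48.8, 43.0, 47.8 and 55.8 CPM untreated (log2 -0.51 ± 0.12; adjusted p = 0.00271), and 75.4, 72.1, 66.7 and 60.4 CPM and 50.4, 44.2, 45.5 and 56.2 CPM with angiotensin II (log2 -0.48 ± 0.12; adjusted p = 0.004). No library overlapped in either gene, and for Pfkp the P19 libraries were closest. Pfkfb3 read 20.7, 15.8, 15.7 and 14.6 CPM and 10.9, 11.02, 10.3 and 10.7 CPM untreated, the knockdown libraries being nearly equal (log2 -0.64 ± 0.15; adjusted p = 0.00372). With angiotensin II it read 21.0, 15.2, 14.0 and 14.5 CPM and 9.14, 9.98, 10.1 and 14.3 CPM, the P19 knockdown library lying among the controls (log2 -0.57 ± 0.15; adjusted p = 0.00832). Pfkl moved the other way, higher in 4 of 4 batches, with log2 0.24 ± 0.17 untreated and 0.39 ± 0.17 with angiotensin II. Over all libraries it was called with the block but not in the unblocked fit (adjusted p = 0.324 and 0.095 without, 0.00109 and 4.8e-06 with). Egln3 read 12.0, 7.42, 10.7 and 8.53 CPM and 7.71, 6.06, 7.45 and 6.26 CPM untreated, with overlap (log2 -0.49 ± 0.15; adjusted p = 0.0233). That call was lost without control replicate 1 or 3 or knockdown replicate 2 (adjusted p 0.0567 to 0.0982). With angiotensin II it read 12.0, 10.5, 8.99 and 9.06 CPM and 6.06, 6.91, 6.19 and 5.88 CPM, apart (log2 -0.70 ± 0.16; adjusted p = 0.00234).

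Ankrd37 and Ndrg1, both hypoxia-induced, rose, while Egln3, which HIF also induces, and the glucose transporter gene Slc2a1 were lower. Ankrd37, a small ankyrin-repeat protein gene known as a HIF target, read 1.81, 1.41, 0.898 and 1.08 CPM and 3.64, 3.89, 3.48 and 1.70 CPM untreated, with the P19 knockdown library inside the range of the controls (log2 1.29 ± 0.30; adjusted p = 0.00347). With angiotensin II it read 1.65, 1.62, 1.69 and 0.678 CPM and 4.11, 3.83, 3.44 and 2.39 CPM, apart (log2 1.28 ± 0.30; adjusted p = 0.00382). Ndrg1 read 162, 163, 175 and 142 CPM and 203, 201, 208 and 184 CPM untreated (log2 0.31 ± 0.083; adjusted p = 0.00903). Under angiotensin II its libraries were 147, 155, 155 and 143 CPM and 208, 202, 205 and 195 CPM (log2 0.43 ± 0.083; adjusted p = 0.00067). Neither pair of groups overlapped. Hif1a was higher in 4 of 4 batches in both settings, with log2 0.35 ± 0.13 and 0.33 ± 0.13. It missed the threshold without the block (adjusted p = 0.0524 and 0.0665) and passed it with the block (0.000111 and 0.000237). Vegfa (log2 0.34 and 0.35) and Kdm3a (0.27 and 0.28) were likewise called in both settings with the block but not in the unblocked fit. So was P4ha1 (0.14 and 0.16), higher in 4 of 4 batches untreated and in 3 of 4 with angiotensin II. Bnip3 was at 0.28 untreated, called with the block but not in the unblocked fit (adjusted p = 0.0598 without and 0.00843 with), and at 0.15 with angiotensin II, uncalled in both fits.

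The main enzymes of lower glycolysis stayed near their controls. Over its 7 genes the log2 fold changes ran from -0.185 to -0.036 untreated and from -0.151 to 0.032 with angiotensin II, and 0 were called by edgeR without the block. With the block, Eno1 was lower in both settings (log2 -0.18 and -0.15; adjusted p = 0.00735 and 0.0276) and Pkm in the untreated one (-0.19; 0.00968). Ldha was at -0.15 ± 0.066 untreated (adjusted p = 0.114, and 0.0159 with the block), Ldhb at 0.20 ± 0.10, Pdk1 at -0.082 ± 0.20 and Slc16a3 at 0.058 ± 0.23. Hk2 was lower in 4 of 4 batches (log2 -0.27 and -0.26), called with the block but not in the unblocked fit (adjusted p = 0.00629 and 0.00794). Aldoc was lower by log2 -0.89 ± 0.37 and -1.002 ± 0.37, called by edgeR over all libraries with the block (adjusted p = 0.0153 and 0.00965) and not without it (0.084 and 0.0519). DESeq2, without the block, called it in both (adjusted p = 0.0486 and 0.0218). The P19 knockdown libraries weighed on it: untreated, P19 read 10.1 CPM and the other 3 read 3.005 to 3.86 CPM. Without the P19 knockdown library the log2 fold change was -1.43 untreated and -1.48 with angiotensin II, called without the block (adjusted p = 0.00276 and 0.00381). The untreated call with the block was lost without knockdown replicate 1 or 2 (adjusted p = 0.0528 and 0.0542). Without the P19 knockdown library (replicate 4) the 7 calls became 13 untreated and 12 with angiotensin II, while the share of all genes called went from 25.0% to 31.7% and from 26.7% to 31.9%. Without batch P19 they were 17 and 14, beside 39.99% and 39.9% of all genes.

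**Figure D4:**
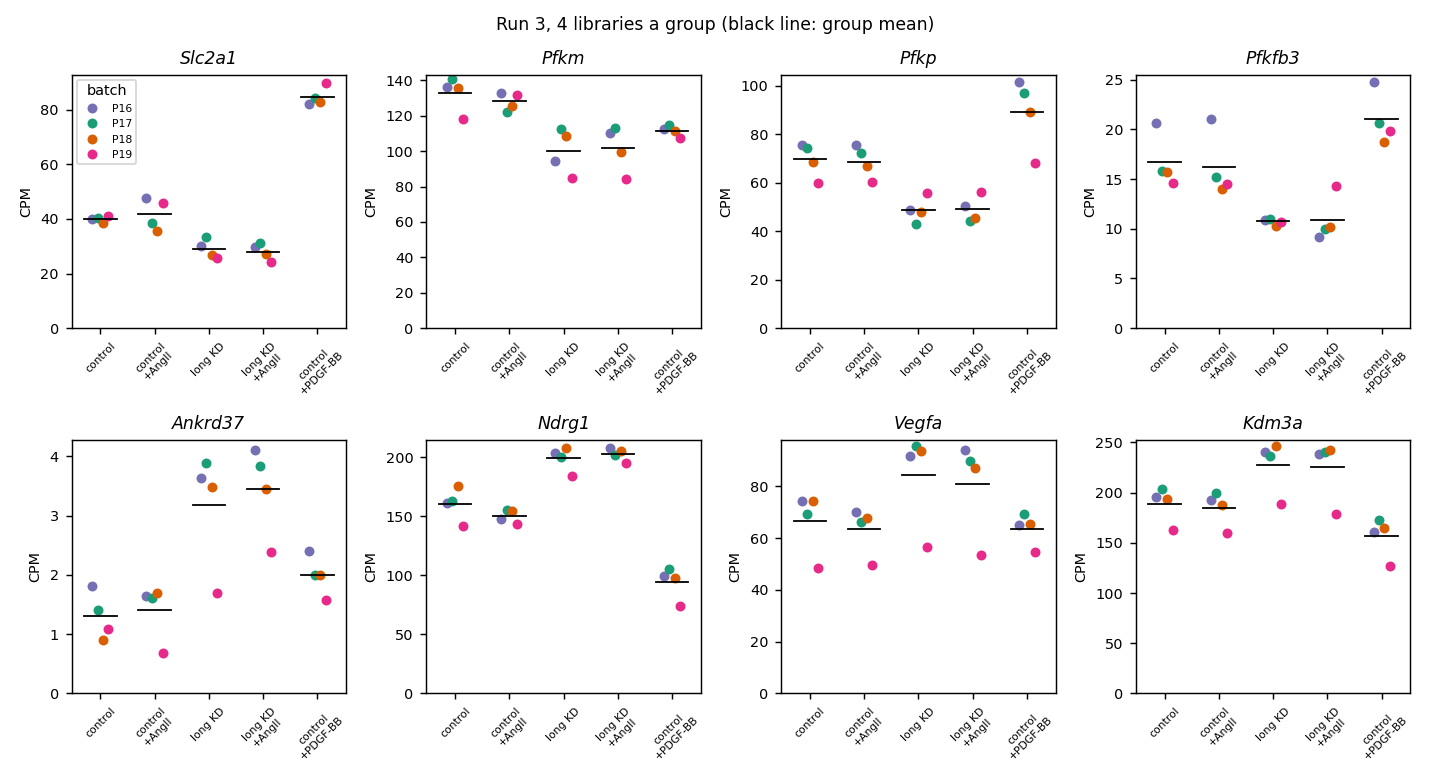
CPM (y axis, from 0) of 8 members in the 5 groups of run 3, with points for single libraries coloured by batch and black lines for group means. Slc2a1, Pfkm, Pfkp and Pfkfb3 are lower and Ankrd37 and Ndrg1 higher in long CASC15 knockdown (KD) with and without angiotensin II (AngII). The P19 library is the lowest of its group for Ndrg1, Vegfa and Kdm3a in all 5 groups.

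No member passed the test after angiotensin II. In control cells 0 of 33 were called by edgeR, beside 0.00% of all genes, with 2 at an unadjusted p under 0.05 and 0 called by DESeq2. In long CASC15 knockdown 0 were called, with 0 at an unadjusted p under 0.05 and 0 by DESeq2. The test of the difference between those 2 responses called 0, with 1 at an unadjusted p under 0.05 and 0 by DESeq2. Background shares were 0.00% in both and with the block. In control cells 32 of 33 fitted changes were within 0.5 on the log2 scale, at a median SE of 0.109. The exception was Car9, at 0.42, 0.433, 0.249 and 0.271 CPM without and 0.443, 0.784, 0.759 and 0.617 CPM with angiotensin II (log2 0.93 ± 0.38; adjusted p = 1). Hif1a was at -0.031 ± 0.13, Slc2a1 at 0.068 ± 0.095, Hk2 at 0.13 ± 0.12 and Ldha at -0.034 ± 0.066.

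In the libraries labelled total CASC15 knockdown, whose target level goes against the label, 0 of 33 members were called by edgeR, beside 1.50% of genes higher and 0.560% lower. Of these 3 were at an unadjusted p under 0.05, and DESeq2 called 2, beside 2.21% of the 29867 genes it fitted. With the block 4 were higher and 1 lower, beside 8.76% and 5.63% of all genes. Aldoc, the minor aldolase, read 1.20 and 1.04 CPM in the antisense control and 3.66 and 3.45 CPM in those libraries (log2 1.66 ± 0.37; adjusted p = 0.0567, and 0.0057 with the block). Ddit4 read 139 and 104 CPM and 226 and 206 CPM (log2 0.83 ± 0.18; adjusted p = 0.0539, and 0.000283 with the block). Both were apart with 2 libraries a side. Eno1 (0.48 ± 0.21), Pfkp (0.38 ± 0.23) and Pfkm (-0.42 ± 0.21) also passed with the block but not in the unblocked fit. The blocked count of 5 moved when 1 library was left out. Such a fit keeps 1 library in that group, assumed to vary like the other groups, so its counts are not given. The members' median log2 fold change with the block was 0.058, and ran from -0.0057 to 0.168 when 1 library was left out. Markers of several cell types moved in these libraries. Cd68 read 0.267 and 0.593 CPM in controls and 15.6 and 15.9 CPM there, and Csf1r 0.134 and 0.148 CPM and 1.25 and 4.52 CPM, while Ptprc and C1qa were at 0 in all 4. Over the 7 macrophage and leukocyte markers, 2 of 3 tested were higher, and the summed level was 17.3 to 21.2 CPM against 0.668 to 0.840 CPM. Myh11 of smooth muscle was also higher (2.47 ± 0.43 on the log2 scale; adjusted p = 0.0239). With the block, by fold changes from the fit without it, Des (2.78 ± 0.69), Pecam1 (1.49 ± 0.51) and Vwf (1.21 ± 0.42) were higher and Pdgfra (-1.002 ± 0.66) and Lum (-1.68 ± 1.09) lower. Of the proliferation markers, 0 of 9 were higher without and 8 of 9 with the block. Their part in the members' values was not tested.

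Within isoenzyme families the balance can be read in each library as a share of the family's CPM per kb. These shares are descriptions with no test, and runs are not compared. Ldhb held 5.14 to 5.88% of the lactate dehydrogenase pair in untreated controls of run 3 and 1.05 to 1.35% with PDGF-BB. Hk2 held 8.14 to 9.31% of the 2 hexokinases with the control plasmid and 19.05 to 21.6% with overexpression, and in run 3 it went from 6.30 to 9.32% to 10.6 to 12.3% with PDGF-BB. Among the phosphofructokinases, Pfkl held 35.3 to 39.4% with the control plasmid and 50.8 to 60.5% with overexpression. In run 3 its share was 37.6 to 44.3% in controls, 45.9 to 53.2% with PDGF-BB and 50.7 to 56.2% with long CASC15 knockdown. None of these pairs of ranges overlapped. Pfkm had a lower share in each of them, from 38.2 to 44.0% in run 3 controls to 26.8 to 35.5% with PDGF-BB and 30.9 to 34.7% with long CASC15 knockdown. For Pfkp the share was 16.7 to 18.4% in controls, 18.6 to 20.0% with PDGF-BB and 10.5 to 17.4% with long knockdown, the last overlapping the controls.

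**Figure D5:**
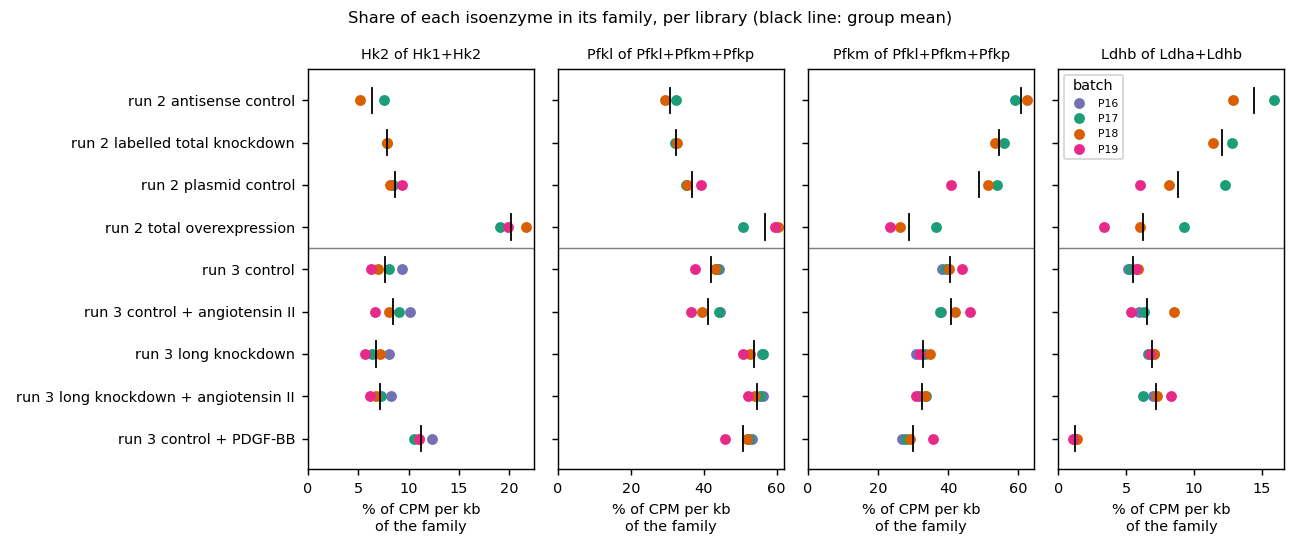
Share of Hk2, Pfkl, Pfkm and Ldhb in their family's summed CPM per kb (x axis, percent) in each library of the 9 groups (y axis), with colours for batches and black lines for group means. A grey line parts run 2 from run 3. Pfkl is at 50.8 to 60.5% with overexpression against 35.3 to 39.4% in its control, and Ldhb is at 1.05 to 1.35% with PDGF-BB.

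Batch P19 of run 3 stood apart over all genes, and members shared in it. Its library was the lowest of its group in all 5 groups for 5 of 33 tested members (15.2%): Pfkl, Pdk1, Vegfa, Ndrg1 and Kdm3a. Over all genes tested that held for 1662 of 15103, so the members' share is near the background. It was the highest in all 5 for 0 members, beside 1766 of 15103 genes (11.7%). Vegfa in P19 lay at a median log2 ratio of -0.587 to the mean of the other 3 libraries of its group, Pdk1 at -0.539, Pfkl at -0.422, Kdm3a at -0.353 and Ndrg1 at -0.145. Hif1a was among those lowest there in 4 of 5 groups, at -0.312. Aldoc and Pkm were highest there in 4 of 5 groups, at 0.542 and 0.245. Gapdh (0.024), Pgk1 (0.0030) and Tpi1 (-0.0092) were near 0. The P19 libraries also had the lowest mitochondrial share of their group in all 5 groups (1.73 to 2.65%, others 2.59 to 3.33%) and the lowest TMM factor in all 5 (0.924 to 1.01, others 0.951 to 1.05). The part of either in these values was not tested. The P16 library was the highest of its group in all 5 groups for 5 members (Hk2, Gapdh, Ldha, Slc16a3 and P4ha2), beside 79 of 15103 genes (0.523%). The P18 library was the lowest in all 5 for Pgam1 and Eno1, beside 99 genes (0.655%). These other batches were examined after the values were seen.

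Further genes of these pathways were counted from a list of 89, of which 78 were tested. With PDGF-BB 34 were higher and 10 lower, against the background of 23.6% and 20.0% given above. The pentose phosphate pathway, which draws glucose 6-phosphate away to make NADPH and ribose, had 4 of 7 higher and 0 lower. G6pdx, its first and committed enzyme, read 55.4, 46.1, 38.1 and 45.6 CPM in controls and 127, 115, 111 and 123 CPM with PDGF-BB (log2 1.36 ± 0.14; adjusted p = 2.2e-07). Among 12 genes of pyruvate entry and oxidation 5 were higher and 2 lower: Pdk2 fell (-0.75 ± 0.12), as did Pdk4 (-0.41 ± 0.14), while Pdk3, another kinase of the same enzyme, rose (0.76 ± 0.22). Of 28 further hypoxia-induced genes 13 were higher, led by Tfrc, the transferrin receptor (2.24 ± 0.17), and 5 lower, led by Edn1, endothelin (-1.38 ± 0.23). HIF partners and regulators gave 2 higher and 2 lower of 9, with Arnt2 at -0.51 ± 0.079. With total CASC15 overexpression 3 of 78 were higher (Pgm1, Mif and Fam162a, log2 0.57 ± 0.09, 0.93 ± 0.16 and 0.89 ± 0.17) and 0 lower, beside 1.09% and 0.554% of all genes, and with the block 17 and 4, beside 9.40% and 8.33%. Under long CASC15 knockdown 10 were higher and 13 lower in untreated cells, and 11 and 15 with angiotensin II. All genes gave 12.3% and 12.8% untreated and 13.4% and 13.3% with angiotensin II. Among the 78, Pdk4 (1.05 ± 0.14 untreated; adjusted p = 1.5e-05) and Rora (0.81 ± 0.16) were higher. Loxl2 (-1.14 ± 0.11; adjusted p = 2.9e-07), a collagen cross-linking enzyme, Pgd (-0.62 ± 0.16) of the pentose phosphate pathway and Slc16a1, the lactate transporter MCT1 (-0.78 ± 0.24), were lower. In the libraries labelled total CASC15 knockdown, 3 were higher (Hk3, Pygm and Stc2) and 1 lower (Angptl4), beside 1.50% and 0.560% of all genes. Hk3, a hexokinase of blood cells, was at 0 CPM in both controls and at 1.55 and 1.61 CPM there, and Pygm, the muscle glycogen phosphorylase, read 0.713 and 1.19 CPM and 13.1 and 16.2 CPM.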

How the data were processed

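RNA-seq of 30 libraries (9 groups, 2 sequencing runs, reads of 75 bp) was taken from the authors' deposited table of expected counts. RSEM 1.3.1 and STAR 2.7.11b are named in the submitters' processing notes, which also list the builds GRCm39 and mm10 without saying which the table used, so no coordinates come from it. The 34 members and all gene lists were chosen with earlier results of these data known. Symbols were matched by gene identifier in a supplied name table, and transcript lengths came from GENCODE M21. All members are named, with per-library values for up to 3 called members of largest change per role and comparison and for members that did not move with their role. Up to 3 of the largest called changes are named per further list. Aldoa has 2 identifiers, and the one with more counts was used.

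Expected counts were rounded. Runs were fitted apart with edgeR 4.0.16 in R 4.3.3: filterByExpr (minimum count 10, minimum total 15), TMM, robust quasi-likelihood fit with a coefficient per group, Benjamini-Hochberg adjustment over all genes, called at an adjusted p under 0.05. The script was tested on simulated counts. Run 2 libraries held 18007199 to 21881959 counts, and those of run 3 15771490 to 30362047. The labels give each replicate number a batch, so numbers pair libraries: deviations from group means correlated at a mean of 0.184 to 0.499 for same-numbered pairs and -0.253 to -0.0559 for others. Alternatives were the batch as a replicate block, DESeq2 1.42.0, RLE factors, other filters, only the groups compared, a minimum absolute log2 fold change of 1, processed copies added, leaving out each library and leaving out batch P19.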

Additional observations from a re-analysis of the deposited data

Results flagged for a closer look

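Among 170 sets of 4 libraries (34 members in the 5 groups of run 3), 13 held 1 library far from the other 3, where chance gives about 8.5, or 1 in 20. Of the 13, 9 were batch P19. In untreated long CASC15 knockdown, the P19 library was low for Vegfa (56.7 CPM, others 91.7 to 95.6) and Pdk1 (46.0 CPM, others 64.8 to 68.2). It was high for Hk1 (355 CPM, others 298 to 307), Pkm (1286 CPM, others 997 to 1043) and Aldoc (10.1 CPM, others 3.005 to 3.86). In long CASC15 knockdown with angiotensin II, the P19 library was low for Egln1 (63.2 CPM, others 74.6 to 75.0) and Kdm3a (179 CPM, others 239 to 243). In that group the P18 library was low for Eno1 (495 CPM, others 565 to 568), and the P16 library was high for Car9 (0.616 CPM, others 0.299 to 0.324). In controls with angiotensin II, the P19 library was low for Ankrd37 (0.678 CPM, others 1.62 to 1.69) and high for Adm (0.308 CPM, others 0.0584 to 0.0980), and the P18 library was low for P4ha1 (215 CPM, others 231 to 234). With PDGF-BB, the P16 library was high for Car9 (1.35 CPM, others 0.662 to 0.738).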

How the results depend on the processing

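No called member changed direction under any alternative run. Counts of members called moved as follows. All comparisons are given for the replicate block, and otherwise those that moved by over 1.5 times. With the replicate block, the total knockdown count went from 0 to 5, overexpression from 5 to 21, and long knockdown from 7 to 18 untreated and from 7 to 15 with angiotensin II. PDGF-BB went from 23 to 28, and the angiotensin II and interaction counts stayed at 0. DESeq2 gave 2 for total knockdown and 14 for overexpression (2.21% and 2.45% of all genes). No filter on low counts gave 2 and 15 (4.44% and 4.56%), and only the groups compared gave 2 and 2 (7.34% and 0.478%). A minimum absolute log2 fold change of 1 left 2 for overexpression (0.945% of all genes), 1 and 1 for long knockdown (5.12% and 5.36%), and 9 for PDGF-BB. Without batch P19 the counts were 9 for overexpression, and 17 and 14 for long knockdown. Leaving out 1 library in turn gave 2 to 11 for overexpression, and 6 to 13 and 7 to 12 for long knockdown. With the block, the total knockdown count also moved when 1 library was left out. The cause of these shifts was not tested. The fits with the block that leave out a library or batch P19 were added after the data were seen. Limits: 2 or 3 libraries a group in run 2, 1 library per batch and group, batches whose meaning is not given, and a target level that goes against 1 label. Adm, Car9 and Ankrd37 rest on few reads.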
